A study of Mus musculus with 15 samples.

Results

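The semaphorins, plexins and neuropilins are a family of guidance ligands and their receptors, described here in mouse cortex 1 day after traumatic brain injury, modelled by controlled cortical impact (CCI), in which a piston strikes the exposed brain. The members are all protein-coding genes of the GRCm38 annotation whose symbol is that of a class 3 to 7 semaphorin, a plexin or a neuropilin. There are 31 of them among 33223 genes in each count table: 20 semaphorins, 9 plexins and 2 neuropilins. The study compared floxed EphA4 mice without Cre (WT) with floxed mice that also carry VeCadCreERT2 (KO), a Cre driven by the VE-cadherin promoter that is active in endothelial cells after tamoxifen. Every mouse of both genotypes carried the floxed EphA4 alleles and was injured over the right parietal cortex, so the data hold no uninjured group. Ipsilateral cortex was dissociated and sorted with microbeads against CD45, carried by leukocytes and microglia, and CD31, carried by endothelial cells. RNA came from CD45 cells and from the flow-through, the cells that neither bead held back. Used here were 7 flow-through libraries (4 WT, 3 KO) and 7 CD45 libraries (3 WT, 4 KO). Age, sex and tamoxifen dosing are not given in the labels used here.

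Semaphorins are extracellular ligands that steer axons, blood vessels and migrating immune cells, mostly by repulsion. Class 3 semaphorins are secreted and most of them bind a neuropilin, which has a short cytoplasmic tail and signals through a partner plexin. Semaphorins of classes 4 to 6 span the membrane, and Sema7a is held by a lipid anchor. Plexins carry a GTPase-activating domain that lowers integrin adhesion and collapses the actin cytoskeleton. In brain injury, class 3 semaphorins are known from scar fibroblasts and Sema4d and Sema4a from leukocytes.

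Total counts were 11574414 to 31337948 per library. Ptprc, which encodes CD45, lay at 805 to 1043 CPM (the count scaled to the library total) in the CD45 libraries and at 0.660 to 1.22 CPM in the flow-through. Epha4, the targeted gene, lay at 38.5 to 43.0 CPM in flow-through WT and 36.03 to 42.2 CPM in flow-through KO libraries, and did not pass the test (log2 fold change -0.07, SE 0.09, adjusted p = 0.849 by edgeR). In CD45 libraries it lay at 1.69 to 3.54 CPM. Endothelial cells were not sequenced as a fraction, so these levels do not check the deletion. Another library is labelled as flow-through WT, but its counts were deposited in the CD45 table. Its values fell inside the range of the 7 CD45 libraries for 29 of the 31 members and inside that of the 7 flow-through libraries for 1, and it was left out.

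The fractions differed in nearly every member. With edgeR's quasi-likelihood test over 18098 genes and a threshold of 0.05 on the adjusted p, 30 of 31 members differed between the fractions, 11 higher and 19 lower in CD45. Of all genes tested, 86.1% differed, 41.4% being higher and 44.7% lower, and 86.6% had an unadjusted p under 0.05. The members' count is thus near the background. The median log2 fold change of the members was -1.42, against -0.05 for all genes. The fractions did not overlap in CPM for 28 members, with CD45 on the upper side in 9 and on the lower in 19. Over all genes tested 72.2% did not overlap, 22.5% with CD45 on the upper and 49.7% on the lower side. In bulk samples fewer cells of a type and less RNA per cell cannot be told apart.

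Both neuropilins were higher in CD45 cells. Nrp2, the receptor of Sema3f and Sema3g, lay at 60.8, 71.2 and 83.1 CPM (lowest, median and highest of 7 libraries) in the flow-through and at 389, 409 and 514 CPM in CD45. The log2 fold change was 3.11 (SE 0.09, adjusted p = 1e-14 by edgeR). Nrp1, which binds Sema3a and also VEGF, lay at 12.5, 14.9 and 21.7 CPM in the flow-through and at 54.9, 89.9 and 99.8 CPM in CD45, a log2 fold change of 2.94 (SE 0.14). Neither receptor overlapped between the fractions.

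The plexins were split, 4 being higher and 5 lower in CD45, and members of the A and B subfamilies lay on both sides. Plxnd1, the receptor of Sema3e in vessels and immune cells, lay at 27.5, 30.5 and 42.0 CPM in the flow-through and at 93.7, 157 and 252 CPM in CD45, a log2 fold change of 2.82 (SE 0.18). Plxnc1, the receptor of Sema7a, was higher in CD45 by 2.17 (SE 0.11). Among the B plexins, Plxnb2 was higher in CD45 by 1.42 (SE 0.08), while the other two were the plexins with the largest decrease. Plxnb1, the receptor of Sema4d, lay at 201, 245 and 276 CPM in the flow-through and at 3.21, 4.08 and 6.40 CPM in CD45, a log2 fold change of -5.26 (SE 0.14). Plxnb3, a plexin of the oligodendrocyte lineage, lay at 170, 243 and 271 CPM in the flow-through and at 3.11, 3.67 and 5.68 CPM in CD45, a log2 fold change of -5.37 (SE 0.14). Sema3d (-5.34), Sema5a (-5.27), Sema5b (-5.27) and Plxnb1 (-5.26) were close to it, and Sema3d, Sema5a or Sema5b was the lowest in some alternatives. Of the A plexins, Plxna2 (-1.42, SE 0.19), Plxna3 (-1.9995, SE 0.13) and Plxna4 (-0.50, SE 0.11) were lower in CD45. Plxna1 was called higher (0.58, SE 0.19, edgeR adjusted p = 0.0093), but its CPM ranges overlapped and the call depended on scaling. Without TMM, edgeR's correction for library composition, it stood at 0.06 log2 units (SE 0.19, adjusted p = 0.78).

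Among the semaphorins 5 were higher in CD45, 14 lower and 1 not called. Sema4a, a class 4 semaphorin of dendritic cells and macrophages, was the member with the highest fitted fold, although Sema3g, with a larger error, was above it in some alternatives (4.53 without CD45 KO replicate 4). Sema4a lay at 24.8, 26.1 and 31.7 CPM in the flow-through and at 298, 406 and 490 CPM in CD45, or 4.42 on the log2 scale (SE 0.09, adjusted p = 1.91e-16 by edgeR). Sema4d, first described on lymphocytes as CD100, was higher in CD45 by 1.79 (SE 0.13), and its flow-through level stayed at 108 CPM or more. The other class 4 members were lower in CD45, Sema4f by -2.44 (SE 0.12), Sema4b by -1.55 (SE 0.14), Sema4g by -1.15 (SE 0.13) and Sema4c by -0.36 (SE 0.08). Sema4c did not pass in the WT libraries alone (-0.27, edgeR adjusted p = 0.0525) or after a correction for GC content and transcript length (-0.16, edgeR adjusted p = 0.0525).

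Of the class 6 members Sema6b was higher in CD45. It lay at 9.18, 13.0 and 15.1 CPM in the flow-through and at 82.4, 87.7 and 128 CPM in CD45, a log2 fold change of 3.51 (SE 0.09). Its relatives Sema6a (-3.76, SE 0.19), Sema6c (-3.41, SE 0.25) and Sema6d (-3.30, SE 0.11) were lower in CD45, as was the lipid-anchored Sema7a (-1.90, SE 0.15). Both class 5 semaphorins, which carry thrombospondin repeats, were nearly absent from the CD45 libraries. Sema5a lay at 67.3, 72.7 and 87.5 CPM in the flow-through and at 0.618, 1.11 and 2.39 CPM in CD45 (log2 fold change -5.27, SE 0.23). Sema5b lay at 22.7, 23.9 and 27.7 CPM in the flow-through and at 0.0319, 0.277 and 1.44 CPM in CD45 (-5.27, SE 0.37), the lowest value resting on 1 count. Without CD45 KO replicate 4, where it was highest, the log2 fold change of Sema5b was -5.91.

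The secreted class 3 semaphorins split. Sema3d lay at 45.3, 48.1 and 65.6 CPM in the flow-through and at 0.415, 0.887 and 1.44 CPM in CD45, a log2 fold change of -5.34 (SE 0.20). Sema3b followed with 4.66, 6.75 and 9.33 CPM against 0.146, 0.257 and 0.501 CPM (-4.04, SE 0.24), and Sema3e (-3.82, SE 0.22) and Sema3a (-3.43, SE 0.33) were also lower in CD45. Sema3g, known from arterial endothelium, went the other way, with 0.122, 0.521 and 1.19 CPM in the flow-through and 1.75, 8.89 and 11.8 CPM in CD45 (4.36, SE 0.48), its flow-through values resting on 3 to 25 counts per library. The 7 endothelial markers fixed for the check included Pecam1 and Cldn5. They summed to 40.5 to 58.6 CPM in the flow-through and to 275 to 464 CPM in CD45. In CD45 Pecam1 alone lay at 131 to 178 CPM, and Cldn5 at 15.8 to 31.0045 CPM. In the flow-through Pecam1 lay at 1.91 to 6.23 CPM and Cldn5 at 4.11 to 6.19 CPM. The CD45 sum thus rested in large part on Pecam1, and whether all of it came from endothelial cells was not tested. The part of endothelial RNA in the values of Sema3g, Nrp1 and Plxnd1 was not tested either. Sema3f was called higher in CD45 (0.93, SE 0.22), but its ranges overlapped, and without TMM it was not called (0.40, edgeR adjusted p = 0.105).

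Sema3c, a class 3 semaphorin that signals through both neuropilins and plexin D1, was the member not called between fractions (-0.08, SE 0.12, edgeR adjusted p = 0.538). It lay at 15.1, 20.8 and 29.7 CPM in the flow-through and at 10.4, 15.4 and 19.4 CPM in CD45, which overlap. In the WT libraries alone Sema3c was lower in CD45 (-0.40, SE 0.15, edgeR adjusted p = 0.0284), and in the KO libraries alone it was not called (0.28, SE 0.18, edgeR adjusted p = 0.177). It was also called lower without TMM (-0.61, edgeR adjusted p = 0.000214) and with upper-quartile scaling (-0.33, edgeR adjusted p = 0.0188). Over all genes the median log2 fold change moved from -0.05 with TMM to -0.58 without it and to -0.31 with upper-quartile scaling, and the split of all genes called moved from 7492 higher and 8091 lower to 5083 and 10740 without TMM, and to 6249 and 9303 with upper-quartile scaling. The members' split moved less, to 9 higher and 20 lower without TMM.

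**Figure D1:**
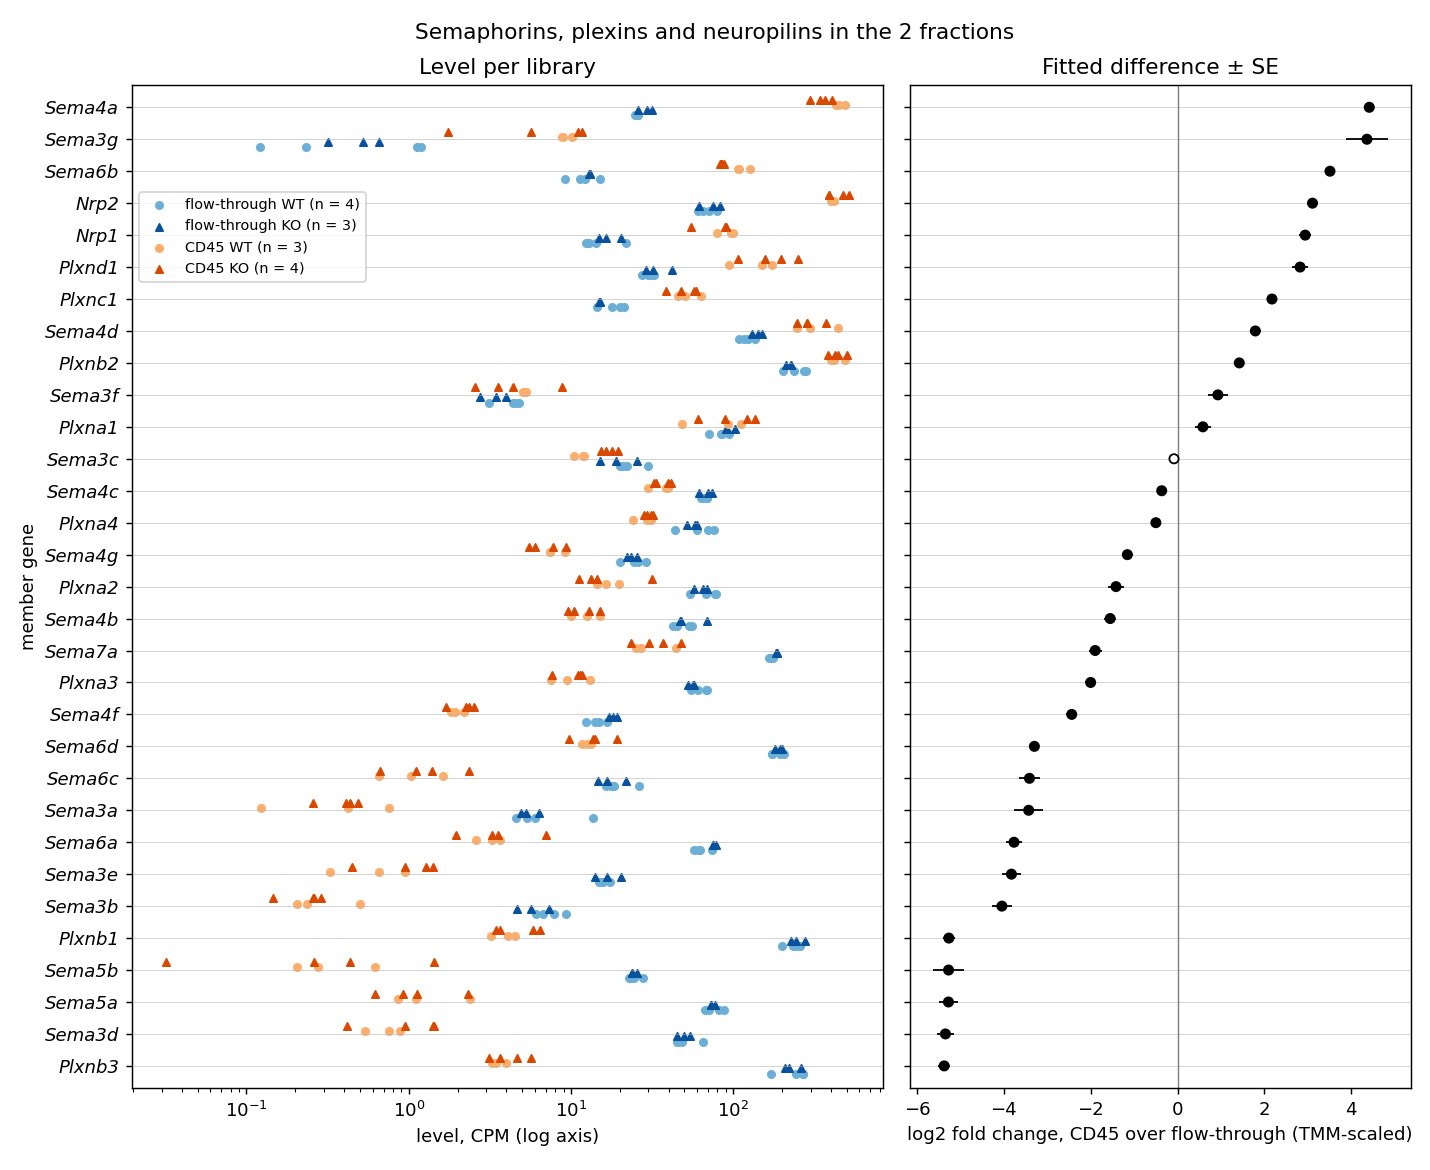
Left, level of each of the 31 members in the 14 libraries in CPM on a log axis (circles WT, triangles KO, blue flow-through, orange CD45). Right, fitted log2 fold change of CD45 over flow-through with its SE, filled where called by edgeR; Sema4a is at the top with 4.42, Plxnb3 at the bottom with -5.37, and Sema3c is the open point.

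Marker lists of flow-through cell types were summed in both fractions. How their RNA came into the CD45 libraries was not tested. The 5 oligodendrocyte markers summed to 313 to 1190 CPM in CD45 libraries against 18809 to 31289 CPM in the flow-through, with a list median of -5.89 on the log2 scale, and the 6 astrocyte markers had one of -5.43. Plxnb3, Sema3d, Sema5a, Sema5b and Plxnb1 lay between -5.37 and -5.26, close to those medians. The part of RNA from such cell types in their CD45 values was not tested. In the other direction, the fraction folds of Sema4a (4.42) and Sema4d (1.79) were below the list medians of the leukocyte and microglia markers, all on the log2 scale. These were 12.33 for the 5 monocyte and macrophage markers, 10.30 for the 6 neutrophil markers and 8.74 for the 6 lymphocyte markers. The 6 microglia markers, 5 higher and 1 lower in CD45, had the median nearest to Sema4a (5.82). The part of such cells in the flow-through values of Sema4a and Sema4d was not tested.

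Levels can be compared between genes only per length, as counts per kilobase of exon scaled to the library total (RPKM). By median RPKM the order in CD45 cells was Sema4a (75.0), Plxnb2 (55.0), Sema4d (37.4), Nrp2 (34.5), Sema6b (22.1) and Plxnd1 (21.6). Each of these overlapped with the next in its range over libraries, except Nrp2, whose libraries all lay above those of Sema6b. In the flow-through the order was Sema7a (53.5), Plxnb3 (37.5), Plxnb2 (29.6), Plxnb1 (25.5), Sema6d (18.3), Sema4d (17.0) and Sema4c (14.96). All libraries of Sema7a lay above those of Plxnb3, and those of Plxnb1 above those of Sema6d, while the other neighbours overlapped.

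The leading semaphorin differed between the fractions. Of the summed RPKM of all 20 semaphorins, Sema4a took 40.7 to 48.1% in the CD45 libraries and 2.94 to 3.52% in the flow-through. Sema4d added 19.3 to 29.5% in CD45 and 9.38 to 11.7% in the flow-through. Sema7a took 32.7 to 35.3% in the flow-through and 4.28 to 9.19% in CD45. Of the plexins, Plxnb2 took 51.3 to 64.6% in CD45 and 21.1 to 26.2% in the flow-through, while Plxnb1 took 18.5 to 22.0% in the flow-through and 0.282 to 0.701% in CD45. Plxnb3 took 26.2 to 31.1% in the flow-through and 0.444 to 0.834% in CD45. Nrp2 took 71.6 to 82.2% of neuropilin RPKM in the flow-through and 77.3 to 85.4% in CD45, ranges that overlap.

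**Figure D2:**
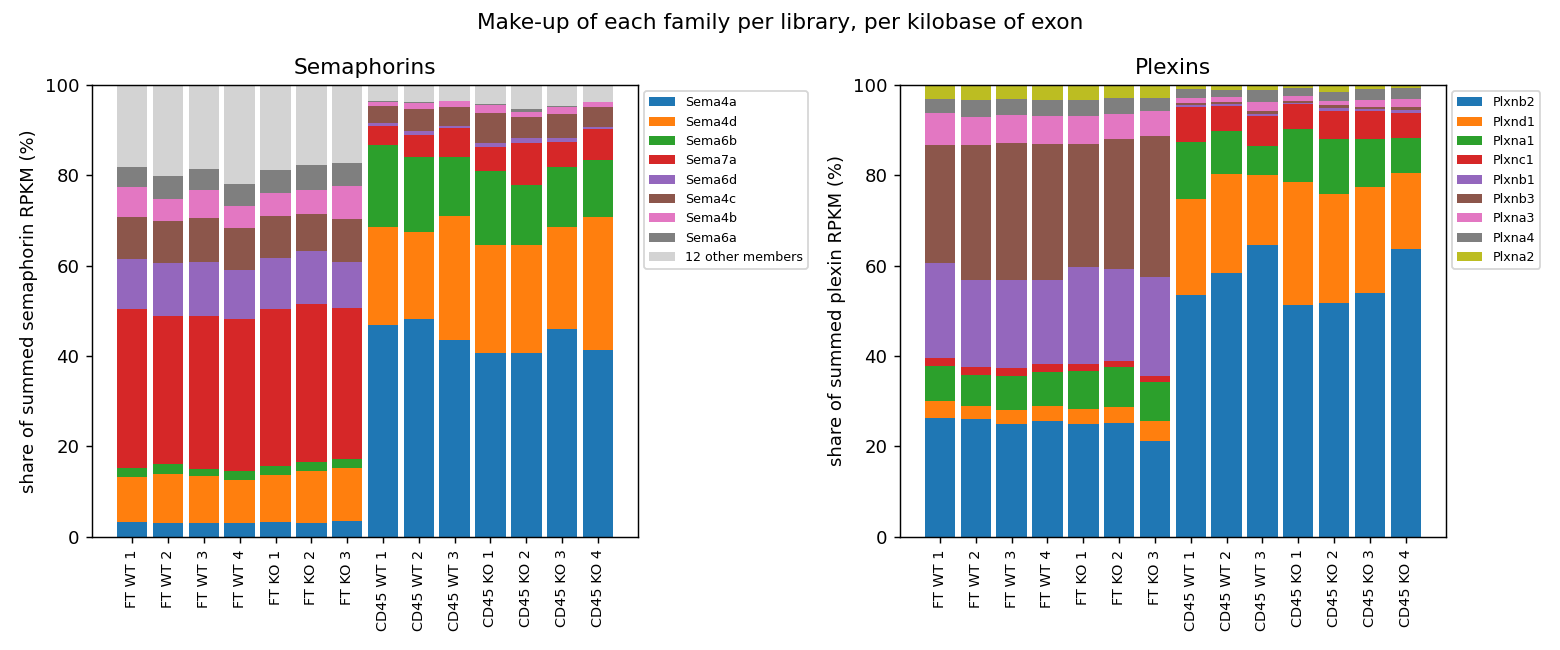
Share of each member in the summed RPKM of its family, in percent, for the 7 flow-through (FT) and 7 CD45 libraries, semaphorins left and plexins right. Sema7a (32.7 to 35.3%) is the widest semaphorin band in the flow-through and Sema4a (40.7 to 48.1%) in CD45, and the bands of Plxnb1 and Plxnb3 are wide in the flow-through and narrow in CD45.

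Ligands and the receptors they are known to bind were in some cases higher in opposite fractions and in others on the same side. The pairs named here are examples and not a full list, so they give no share of either kind. Sema4d was higher in CD45 and its receptor Plxnb1 was lower there, whereas Cd72, another of its receptors, was higher in CD45 (8.60, SE 0.19). Which cells carried Cd72 was not tested. Plxnb1 had mean levels of 4.44 CPM ± 1.23 (SD, n = 7) in CD45 and 241 CPM ± 23.8 (SD, n = 7) in the flow-through. Sema7a averaged 178 CPM ± 8.09 (SD, n = 7) in the flow-through and 33.5 CPM ± 9.57 (SD, n = 7) in CD45, while its receptor Plxnc1 averaged 16.9 CPM ± 2.78 and 51.8 CPM ± 8.50. Sema3e averaged 16.4 CPM ± 2.06 in the flow-through and 0.861 CPM ± 0.407 in CD45, and its receptor Plxnd1 was higher in CD45. Sema3a was likewise higher in the flow-through and Nrp1 in CD45. Other pairs lay on the same side. Sema5a and its receptor Plxnb3 were both higher in the flow-through, and Sema3g and Nrp2 were both higher in CD45. Sema6a (-3.76) was lower in CD45, as were plexins A2 (-1.42) and A4 (-0.50), which it binds. These are RNA levels, and no interaction was measured.

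Promoter sequence was available for 26 of the 31 members, as 37 windows of 300 bases that reach from 250 bases before to 50 after a start site (RefSeq, GRCm38.p6). The windows were searched on both strands for GAGGAA, the core of the site bound by the myeloid factor PU.1, and for ACAAAG, a site form bound by Sox factors. GAGGAA stood in 7 of 16 windows of members higher in CD45 (6 of 9 genes) and in 5 of 20 windows of members lower in CD45 (4 of 16 genes). It stood in 28.3% of all 32851 windows of the table (8446 of 27025 genes). ACAAAG stood in 1 of 16 windows of members higher in CD45, in 6 of 20 of those lower and in 18.7% of all windows. Windows of 1 gene can overlap, and a match is a description and not a bound site. A pair of members from each side is shown, with matches to either motif in capitals and all other bases in lower case, each 5′ to 3′ on the gene's strand.
Sema4a, higher in CD45, most upstream of its 4 windows, chr3:88461133-88461432, minus strand, with GAGGAA on either strand: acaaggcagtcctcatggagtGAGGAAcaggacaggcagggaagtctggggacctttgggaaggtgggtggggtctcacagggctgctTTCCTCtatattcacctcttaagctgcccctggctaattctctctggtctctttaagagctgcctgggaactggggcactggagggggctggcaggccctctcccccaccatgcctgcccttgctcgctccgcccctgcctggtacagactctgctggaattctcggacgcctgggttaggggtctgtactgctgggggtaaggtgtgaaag
Plxnd1, higher in CD45, chr6:115994956-115995255, minus strand, with GAGGAA at a pair of places: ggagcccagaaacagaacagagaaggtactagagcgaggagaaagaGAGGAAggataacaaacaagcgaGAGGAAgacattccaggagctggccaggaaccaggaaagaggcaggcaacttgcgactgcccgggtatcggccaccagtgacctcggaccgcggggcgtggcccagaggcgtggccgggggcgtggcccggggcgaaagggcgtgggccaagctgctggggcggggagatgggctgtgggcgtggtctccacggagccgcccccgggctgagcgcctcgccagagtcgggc
Plxnb3, lower in CD45, chrX:73756853-73757152, plus strand, with both motifs: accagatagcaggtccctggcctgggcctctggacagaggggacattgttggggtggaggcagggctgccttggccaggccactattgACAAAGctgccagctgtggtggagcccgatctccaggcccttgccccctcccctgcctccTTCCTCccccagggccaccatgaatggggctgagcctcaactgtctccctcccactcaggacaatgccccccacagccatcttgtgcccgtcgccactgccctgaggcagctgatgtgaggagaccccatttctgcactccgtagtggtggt
Sema3d, lower in CD45, chr5:12382916-12383215, plus strand, with ACAAAG on either strand: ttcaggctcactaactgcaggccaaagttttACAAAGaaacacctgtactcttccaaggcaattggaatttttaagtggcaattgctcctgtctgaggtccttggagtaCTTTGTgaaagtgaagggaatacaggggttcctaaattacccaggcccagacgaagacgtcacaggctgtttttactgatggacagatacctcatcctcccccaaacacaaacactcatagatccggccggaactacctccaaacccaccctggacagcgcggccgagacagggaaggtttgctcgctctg

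Within the CD45 fraction some members varied more between libraries than between genotypes. The 3 described here are examples, picked by no rule set beforehand. Plxnd1 lay at 150, 174 and 93.7 CPM in the WT libraries and at 252, 198, 157 and 107 CPM in the KO libraries. Plxna1 lay at 112, 92.9 and 48.1 CPM in WT and at 135, 122, 89.1 and 60.4 CPM in KO libraries. WT replicate 3 and KO replicate 4 were thus the lowest for both receptors. The same libraries were the highest for Sema4d, at 441 and 372 CPM, against 246 to 298 CPM in the other 5. They also had the lowest sums of the 5 monocyte and macrophage markers, 2733 and 3681 CPM, where the other 5 libraries lay between 5280 and 6689 CPM. In addition, these libraries had the highest sums of the 5 oligodendrocyte markers, 1190 and 748 CPM against 313 to 554 CPM. The same held for the 6 lymphocyte markers, with 37.7 and 34.8 CPM against 20.4 to 31.5 CPM. Plxnc1 was also lowest in these libraries, at 45.95 and 38.8 CPM. Plxna2 and Sema6a were instead highest in KO replicate 2, at 31.5 and 6.99 CPM. The part of any of these cell types in the values of Plxnd1, Plxna1 and Sema4d was not tested. Without both libraries, an alternative chosen after the data were seen, 30 members were still called between fractions and 0 between genotypes in CD45.

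**Figure D3:**
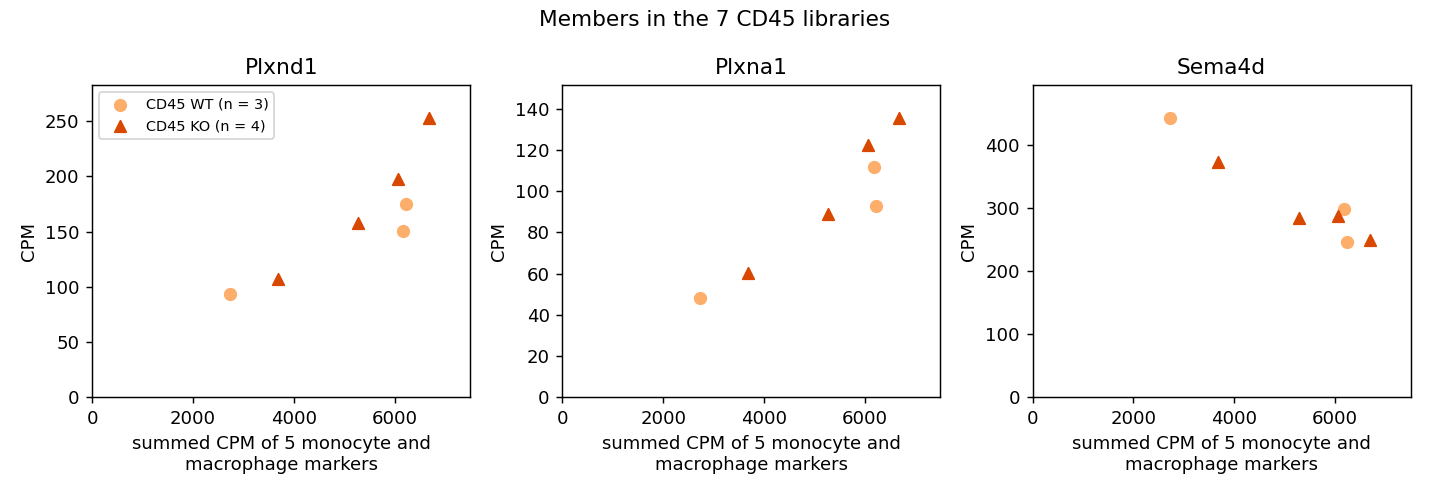
CPM of Plxnd1, Plxna1 and Sema4d in the 7 CD45 libraries against the summed CPM of 5 monocyte and macrophage markers (Ccr2, Ly6c2, Lyz2, Ms4a4a, Chil3). The members shown are examples, picked by no rule set beforehand. WT replicate 3 and KO replicate 4, with sums of 2733 and 3681 CPM, are lowest for Plxnd1 and Plxna1 and highest for Sema4d.

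The comparison of KO with WT asks whether endothelial loss of EphA4 went with a change of these genes in flow-through cells. There 0 of 31 members passed the edgeR test. Of all 16546 genes tested, 1.57% were called. At an unadjusted p under 0.05 stood 6 members, against 11% of all genes tested, and DESeq2 also called 0 members, against 436 of 15903 genes. The median log2 fold change of the members was 0.01, with 16 positive and 15 negative, and that of all genes was -0.01.

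The smallest p was that of Sema6a, a transmembrane semaphorin that binds plexins A2 and A4. It lay at 57.2, 73.6, 60.5 and 62.4 CPM in WT and at 75.3, 78.4 and 75.2 CPM in KO libraries. All KO libraries lay above all WT libraries, and the log2 fold change was 0.29 (SE 0.09, adjusted p = 0.187 by edgeR). Over the alternatives its fold stayed positive, between 0.25 and 0.57, and its edgeR or DESeq2 adjusted p ran from 0.0938 to 0.969. They include the left-out library counted as flow-through WT, in which Sema6a lay at 4.73 CPM. The fold was 0.29 with DESeq2 and 0.27 without TMM. Sema4f, a brain semaphorin, lay at 14.1, 16.8, 14.9 and 12.4 CPM in WT and at 18.2, 17.2 and 19.1 CPM in KO libraries, also without overlap (0.35, SE 0.12, edgeR adjusted p = 0.26). Sema7a was the remaining member without overlap (0.14, SE 0.08, edgeR adjusted p = 0.587). Thus 3 members had KO above WT and 0 below, where 5.19% and 6.78% of all genes tested did, 12% in all.

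Sema4d lay at 116, 137, 123 and 108 CPM in WT and at 130.5, 143 and 150.2 CPM in KO libraries, which overlap (0.25, SE 0.10, edgeR adjusted p = 0.334). Sema4a lay at 26.04, 26.1, 24.8 and 25.1 CPM in WT and at 29.3, 26.04 and 31.7 CPM in KO libraries, with KO replicate 2 inside the WT range (0.21, SE 0.09, edgeR adjusted p = 0.41). Class 4 semaphorins had a median of 0.19 with 5 of 6 positive, and class 3 semaphorins one of -0.28 with 6 of 7 negative. Plexins had a median of -0.09 and neuropilins one of 0.15, none of them called. Cell type markers differed between genotypes in the same libraries. The 8 neuron markers summed to 345 to 527 CPM in WT and to 540 to 725 CPM in KO libraries, with 3 called higher and 1 lower. The 5 neuroblast markers summed to 826 to 1009 CPM in WT and to 533 to 738 CPM in KO libraries, all negative and none called. Their part in the members' differences was not tested.

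The same question in the CD45 cells gave no call either. EdgeR tested 30 members, Sema3b being below the count filter, and called 0, as it did over all 15660 genes, where 0% were called. At an unadjusted p under 0.05 stood 3 members, against 4.43% of all genes tested. DESeq2 called 1 member, Sema6b, among 10 of 15650 genes. The median log2 fold change was 0.05 for the members and 0.02 for all genes.

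Sema6b lay at 128, 109 and 107 CPM in WT and at 87.7, 83.6, 85.8 and 82.4 CPM in KO libraries. All KO libraries lay below all WT libraries, and the KO values were close together, with a mean of 84.9 CPM ± 2.34 (SD, n = 4) against 114 CPM ± 11.5 (SD, n = 3). The log2 fold change was -0.46 (SE 0.09, edgeR adjusted p = 0.974, unadjusted p = 0.000467). With DESeq2 it was -0.47 (SE 0.10, DESeq2 adjusted p = 0.0204). Over all alternatives the fold stayed negative, from -0.51 to -0.37, with adjusted p from 0.0204 to 1.

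Sema3c had the opposite sign. It lay at 11.9, 10.4 and 11.99 CPM in WT and at 16.5, 17.8, 15.4 and 19.4 CPM in KO libraries, without overlap (0.57, SE 0.13, edgeR adjusted p = 0.974, DESeq2 adjusted p = 0.147). Sema4a, the leading semaphorin of these cells, lay at 449.8, 431 and 490 CPM in WT and at 298, 345, 406 and 367 CPM in KO libraries, again without overlap (-0.39, SE 0.13, edgeR adjusted p = 0.974, DESeq2 adjusted p = 0.641). These 3 were the members without overlap, 1 with KO above and 2 with KO below, where 2.92% and 2.16% of all genes tested did so, 5.09% in all. Nrp1, next by p, lay at 96.6, 99.8 and 80.03 CPM in WT and at 89.9, 90.6, 54.9 and 89.0 CPM in KO libraries, which overlap (-0.21, SE 0.16, edgeR adjusted p = 0.974).

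All 9 plexins were measured in CD45, 7 with a positive and 2 with a negative fold (median 0.07), and the largest was that of Plxnd1 (0.33, SE 0.29, edgeR adjusted p = 0.974). Beside these values, all 6 neutrophil markers were negative in KO, with sums of 7570 to 9721 CPM in WT and 5589 to 9365 CPM in KO libraries. All 6 microglia markers were positive, with sums of 3242 to 3487 CPM in WT and 3445 to 4070 CPM in KO libraries. All 5 monocyte and macrophage, all 8 neuron and all 7 endothelial markers were positive as well. Of all 15660 genes tested, 8537 were positive. None of these markers was called, and their part in the values of Sema6b, Sema3c and Sema4a was not tested.

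**Figure D4:**
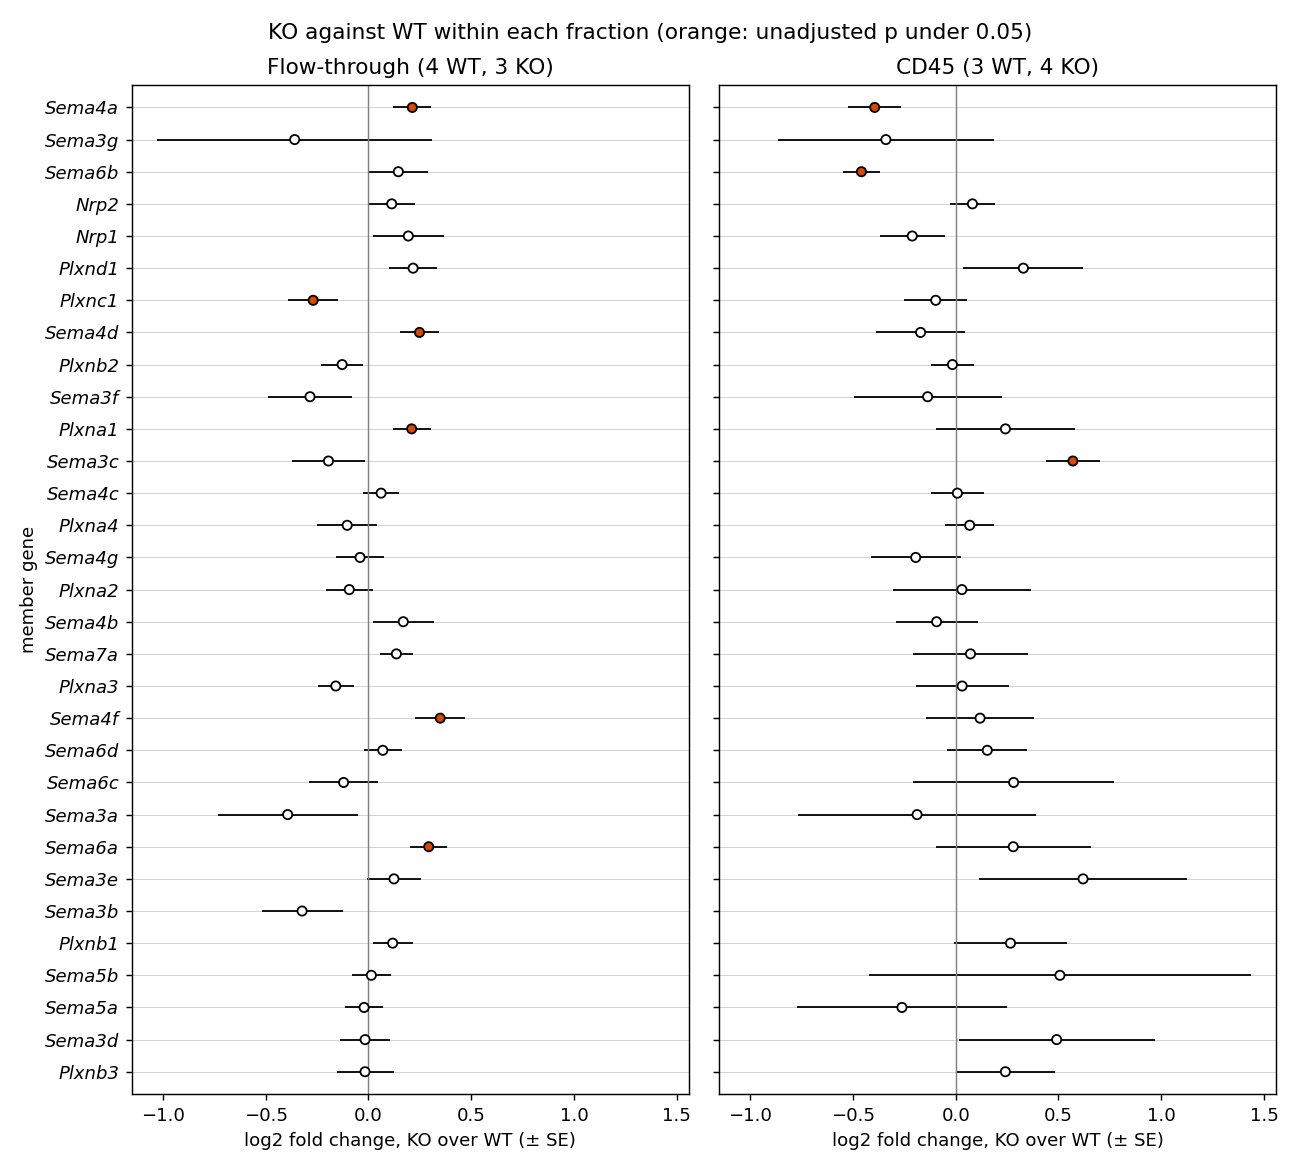
Log2 fold change of KO over WT with its SE for each member, flow-through left and CD45 right, in the order of the fraction comparison; orange points have an unadjusted p under 0.05. No point passed the adjusted threshold of 0.05 in edgeR, and Sema3b is not shown for CD45.

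**Figure D5:**
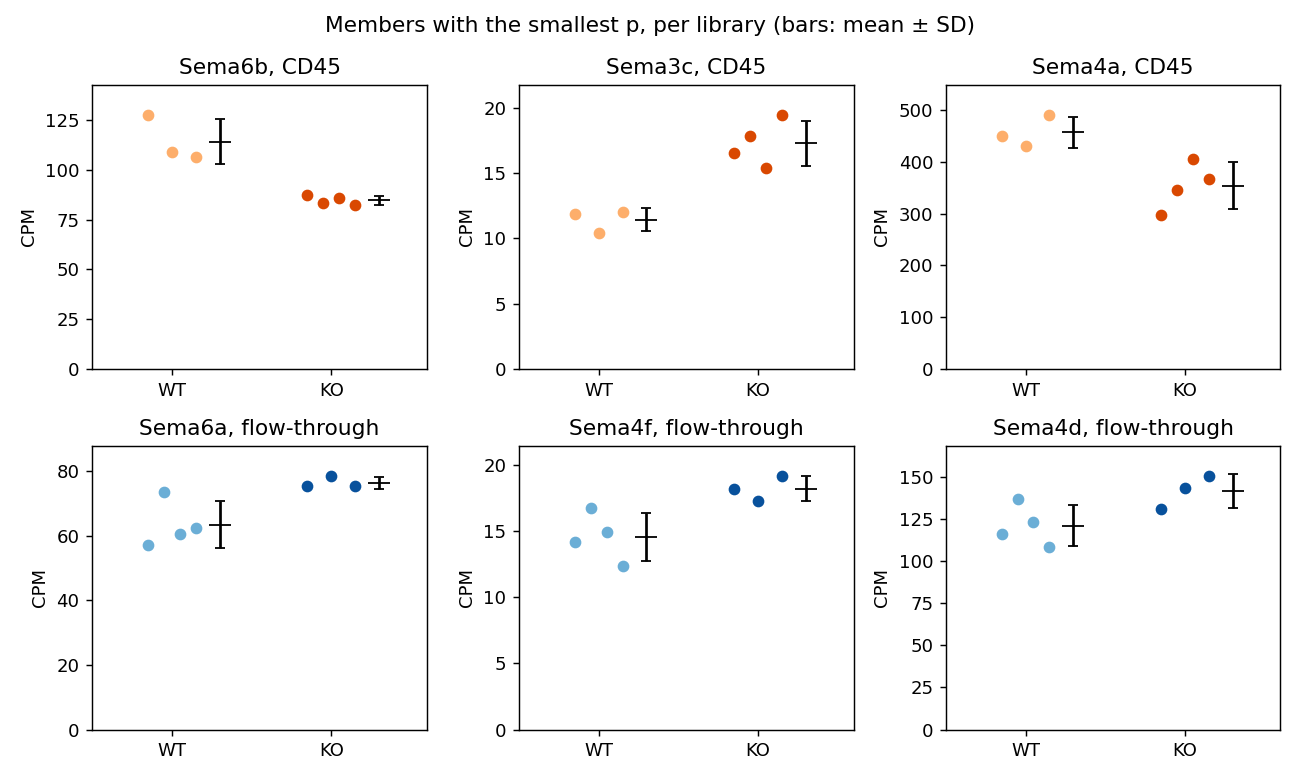
CPM per library (points) with mean ± SD (bars) for the 3 members with the smallest p in CD45 (top) and in the flow-through (bottom). Genotypes do not overlap for Sema6b, Sema3c, Sema4a, Sema6a and Sema4f, and they overlap for Sema4d.

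Whether the genotype difference itself differed between fractions was tested in a joint fit of the 14 libraries. No member was called, with 3 at an unadjusted p under 0.05 against 7.21% of all genes, 0% of which were called. The smallest p was that of Sema4a, with an interaction (the CD45 fold minus the flow-through fold) of -0.63 (SE 0.16, edgeR adjusted p = 0.373). For Sema6b the interaction was -0.62 (SE 0.17, edgeR adjusted p = 0.47), and for Sema3c 0.74 (SE 0.24, edgeR adjusted p = 0.582). DESeq2 called 0 members here too, against 46 of 14931 genes. All 9 plexins had a positive interaction and all 6 class 4 semaphorins a negative one, where 9553 of all 18098 genes tested were positive. Of these, 0 plexins and 1 class 4 semaphorin had an unadjusted edgeR p under 0.05. Signs of genes measured in the same libraries are not independent.

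The other genes of the pathway were described from lists of 16 receptor partners and 34 signal transducers. Between fractions all 15 partners tested were called, 9 higher and 6 lower in CD45, as were all 34 transducers, 16 higher and 18 lower, beside 86.1% of all genes tested. The largest increases were those of Tyrobp (9.89, SE 0.18), the DAP12 adaptor of plexin A1, Trem2 (9.02, SE 0.35), its partner receptor, and Cd72. Trem2 had at most 10 counts and Cd72 at most 14 in a flow-through library, so these folds are imprecise. The largest decreases were those of the collapsin response mediators Dpysl5 (-6.76, SE 0.15) and Dpysl3 (-5.94, SE 0.17) and of the adhesion molecule Cntn2 (-6.03, SE 0.18).

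Between genotypes 1 pathway gene was called, in the flow-through, where 1.57% of all genes tested were called, so the count is near the background. Chl1, an L1 family adhesion molecule that acts with Nrp1 in the response to Sema3a, lay at 284, 281, 335 and 294 CPM in flow-through WT and at 205, 199 and 184 CPM in flow-through KO libraries. It fell by 0.58 log2 units (fitted value -0.58, SE 0.10, adjusted p = 0.00865 by edgeR). This call was not followed over the alternatives. Over all genes, flow-through calls numbered 260 in the main fit, 436 with DESeq2 and 30 in a joint fit of 14 libraries. The part of the neuron and neuroblast marker differences in the value of Chl1 was not tested. The other 12 partners tested and all 34 transducers did not pass in the flow-through. In CD45 cells 0 of 15 partners and 0 of 33 transducers passed. There the smallest p values were those of Itga1, an integrin subunit that pairs with the Sema7a receptor subunit Itgb1 (0.42, SE 0.13, edgeR adjusted p = 0.974), and of the Met receptor, a partner of plexin B1 (0.49, SE 0.19, edgeR adjusted p = 0.974).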

How the data were processed

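The authors deposited raw counts per Ensembl gene, with separate tables for the flow-through and the CD45 fraction. Per the submitters' processing notes, Trim Galore, FastQC, STAR 2.7.9a and the GRCm38 build were used. Counting tool and strand setting: not given in the sources used here. Exons of Plxna1, Sema4c, Plxnb1 and Plxnc1 overlap another gene in the tables (10.7, 7.27, 2.68 and 1.38% of their exon sequence), so their values are uncertain. The labels' protocols name TruSeq Stranded mRNA preparation with 14 amplification cycles. Symbols, positions and exon lengths came from GENCODE M21 (GRCm38), which matched 33113 of 33223 IDs.

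Genotypes were compared within a fraction. The fractions and the interaction were fitted on 14 libraries with 1 mean per group, so fraction folds weigh both genotypes equally. The test was edgeR 4.0.16 (R 4.3.3), quasi-likelihood with robust estimation, TMM scaling and filterByExpr (10 counts in enough libraries, 15 in total), with Benjamini-Hochberg adjustment over all genes tested and calls under 0.05. It was tested on simulated data. Alternatives were DESeq2 1.42.0, other scalings, no count filter, a GC and length correction, each genotype alone, and fits without single libraries. Printed levels are CPM or RPKM from library totals, without TMM, whereas fold changes are TMM-scaled. Levels are given for the 4 members with the smallest genotype p in each fraction and the 2 with the smallest interaction p. They are also given for the 6 highest and 6 lowest between fractions and for pathway genes called between genotypes. Genotype groups are given per library, and fractions as the lowest, median and highest library. Some values stand outside this rule, such as those of Plxnd1 and Plxna1 per CD45 library. The members and lists were chosen with earlier results of these data known.

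Replicate numbers follow accession order and pair nothing. No label ties a library to an animal, so the p-values reflect spread among libraries that may be technical in part, and the fractions may come from the same mice. Chi-square per degree of freedom was 9.42 to 49.8 in the 18 within-group pairs, and no library was treated as a duplicate. Promoter sequences are from RefSeq (GRCm38.p6). The normalized tables were not used.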

Additional observations from a re-analysis of the deposited data

Results flagged for a closer look

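In groups of 4 libraries, 5 of 62 sets of member values had a library far from the others by Dixon's criterion (gap over range above 0.829), which flags about 1 in 20 by chance. In flow-through WT, replicate 4 was far above the others for Sema3a, at 13.6 CPM against 4.57 to 6.04 CPM, and for Sema3d, at 65.6 CPM against 45.3 to 48.1 CPM. In CD45 KO, replicate 3, the library with the fewest counts, was far below the others for Nrp1, at 54.9 CPM against 89.0 to 90.6 CPM. In the same group replicate 2 was high for Plxna2, at 31.5 CPM against 11.2 to 14.5 CPM, and low for Plxna3, at 7.67 CPM against 11.1 to 11.7 CPM.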

How the results depend on the processing

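Between fractions, 27 of 31 members kept their direction and call in every alternative run. The exceptions were Plxna1, Sema3f, Sema4c and Sema3c. Plxna1 was also lost with upper-quartile scaling (0.33). Sema3c turned positive in the KO libraries alone (0.28) and without flow-through KO replicate 1 (0.029), the leave-one-out range being -0.17 to 0.029. Between 29 and 30 members were called in all alternatives. Within the flow-through and in the interaction, 0 members were called in every alternative, and in CD45 the count moved from 0 to 1 with DESeq2 and stayed at 0 in the others. When the left-out library was counted as flow-through WT, flow-through folds of Sema4d (-0.31) and Sema4a (-2.15) turned negative, and the interactions of Sema4a (1.65) and Sema6b (1.07) turned positive, that library having CD45-like levels in 29 of 31 members. No paired analysis was possible because the labels give no replicate numbers shared between groups. Scaling by library totals and leaving out both CD45 libraries low in monocyte markers were chosen after seeing the data. Low counts limit Sema3a, Sema3b, Sema3d, Sema3e and Sema5b in CD45, with at most 29 counts per library, and Sema3g in the flow-through, with at most 25.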
